A study of Rattus norvegicus with 108 samples.

Results

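Ribosome-poor cells of the rat dentate gyrus, defined as droplet barcodes with under 2% of their unique molecular identifiers (UMIs) in the 121 cytosolic ribosomal protein genes, were compared between fluoxetine-treated (FT) and Sham rats across both regions profiled. They made up 1226 of the 3347 cells kept (36.6%). Of these, 512 came from 1289 cells of the dorsal dentate gyrus (dorDG) and 714 from 2058 cells of the ventral dentate gyrus (venDG). The rats were male, 2 months old when treatment began and supplied by Charles River (Long-Evans in the study's methods). For 6 weeks the FT group received fluoxetine at 18 mg per kg in drinking water and the Sham group received water, and no group carried a genetic change. The dorDG FT group had 4 replicates (1, 2, 4 and 5) and dorDG Sham, venDG FT and venDG Sham had 5 each, so 9 FT replicates were set against 10 Sham replicates with region as a covariate. The methods state that the 5 replicates of a treatment pooled tissue from 15 animals. Replicates with the same treatment and number may therefore share animals between the regions, and no replicate measures a single animal. The labels speak of nuclei, the methods describe both cell and nucleus suspensions, and the type of suspension in each reaction is not given in the sources used here.

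Cytosolic ribosomal protein mRNAs are short, abundant and translated in the cytoplasm, so their share of a transcript profile depends on how much cytoplasmic RNA was captured as well as on the cell's own expression. Fluoxetine blocks the serotonin transporter, and the dentate gyrus receives serotonergic input from the raphe nuclei. Its granule neurons are born throughout life, and they share the tissue with interneurons, mossy cells, astrocytes, oligodendrocytes, microglia and vascular cells.

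The cells were selected on their ribosomal share, which is therefore given as a description. Its median was 0.647% in the ribosome-poor cells and 5.61% in the other 2121 cells. The highest value inside the boundary was 1.996% and the lowest outside it was 2.001%, with 96 ribosome-poor cells between 1.5% and 2% and 81 other cells between 2% and 2.5%. The ribosome-poor cells were also shallower, with a median of 1807 UMIs and 1132 genes against 4579 UMIs and 2052 genes, and their median mitochondrial share was 3.29% against 6.48%. Most came from particular reactions. Replicates 1 and 2 of each group (8 replicates) had 2 reactions, and 712 of the 784 cells in their second reactions were ribosome-poor against 107 of 1042 in their first reactions. The other 11 replicates had 1 reaction each, with 407 ribosome-poor cells among 1521. Only 2 barcodes of ribosome-poor cells occurred in more than 1 reaction.

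**Figure D1:**
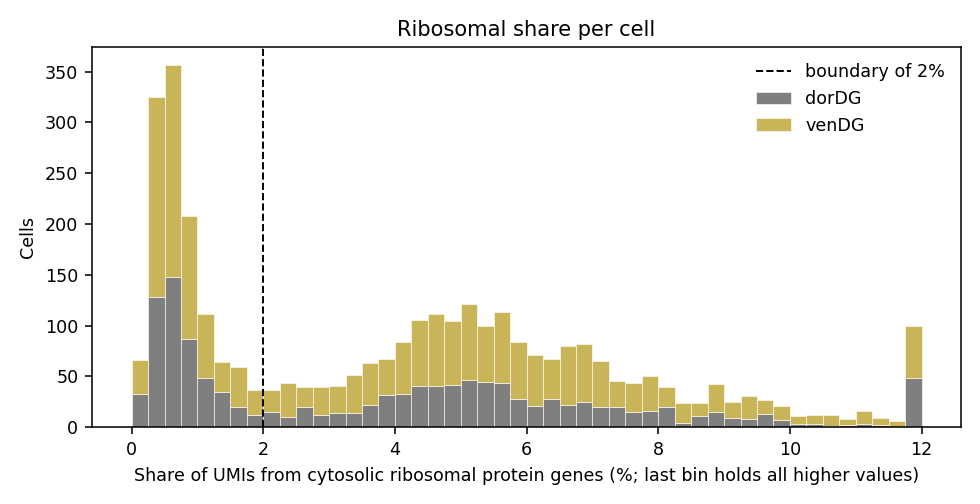
Number of cells by percent of UMIs in cytosolic ribosomal protein genes, stacked by region, with the last bin holding all higher values. The dashed line is the 2% boundary, and the 1226 cells to its left are 512 from dorDG and 714 from venDG.

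Each replicate contributed 15 to 193 ribosome-poor cells and 39122 to 498610 of their UMIs. They were 14.5% of the cells of dorDG FT 4 (Wilson 95% interval 9.49% to 21.5%) and 72.0% of those of dorDG Sham 3 (62.5% to 79.9%), the lowest and highest share, and these intervals cover counting error only. The groups held 146 (dorDG FT), 366 (dorDG Sham), 406 (venDG FT) and 308 (venDG Sham) of these cells. Their median ribosomal share was 0.547% to 0.945% in the FT replicates and 0.304% to 0.976% in the Sham replicates. Several libraries stood apart. In venDG FT 3, clusters with glial names held 67.9% of the UMIs and the median mitochondrial share was 9.11%. A hemoglobin cluster held 31.2% of the UMIs of dorDG FT 4 and 24.3% of those of venDG FT 4. Arhgap28, which encodes a GTPase-activating protein, had 9122 of its 9215 UMIs in ribosome-poor cells in venDG FT 2.

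The ribosome-poor cells formed 13 clusters on their expression profiles, and 6 clusters could be named from marker genes. They comprised 250 Oligodendrocyte-like cells (2 clusters), 172 Astrocyte-like, 88 Microglia-like, 58 oligodendrocyte precursor (OPC)-like and 40 Inhibitory-like cells. The other 618 cells stayed unnamed. Cluster 7, with 166 cells, had the granule neuron markers Prox1, Calb1, Rfx3, Ntng1, Stxbp6 and Tiam1 above the glial clusters, but CAMK2A, an excitatory neuron gene, was among its 10 leading genes, and it kept its number. Against all other ribosome-poor cells 2 of these markers stood out, Rfx3 and Stxbp6. The authors' names differed, with 86 of the 113 dorDG cells of cluster 7 named InhibNeuron and 5 of the 6 dorDG Inhibitory-like cells named Granule. Cluster 9 (202 cells) was led by Arhgap28 and drew 78 cells from venDG FT 2, cluster 8 (46 cells) had 7 endothelial and 7 mural markers, and cluster 2 (23 cells) was led by hemoglobin genes. No doublet caller was run.

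The makeup of the cells varied widely among replicates of one group. The Oligodendrocyte-like share of a replicate's ribosome-poor cells was 13.1% ± 7.26 (SD, n = 4) in dorDG FT, 21.1% ± 6.45 (n = 5) in dorDG Sham, 22.8% ± 22.9 (n = 5) in venDG FT and 23.1% ± 12.9 (n = 5) in venDG Sham. The Astrocyte-like share was 21.1% ± 13.4 and 13% ± 7.98 in dorDG and 16.3% ± 5.30 and 11.6% ± 8.90 in venDG, FT before Sham. Cluster 7 made up 13.7% ± 7.50 of dorDG FT cells and 24.5% ± 16.6 of dorDG Sham cells. None of these shares separated FT from Sham. In a two-sided exact permutation test of treatment within region the differences had p = 0.536 for Oligodendrocyte-like, p = 0.143 for Astrocyte-like and p = 0.178 for cluster 7 cells, and no cluster share among the 28 measures tested had an adjusted p under 0.653.

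**Figure D2:**
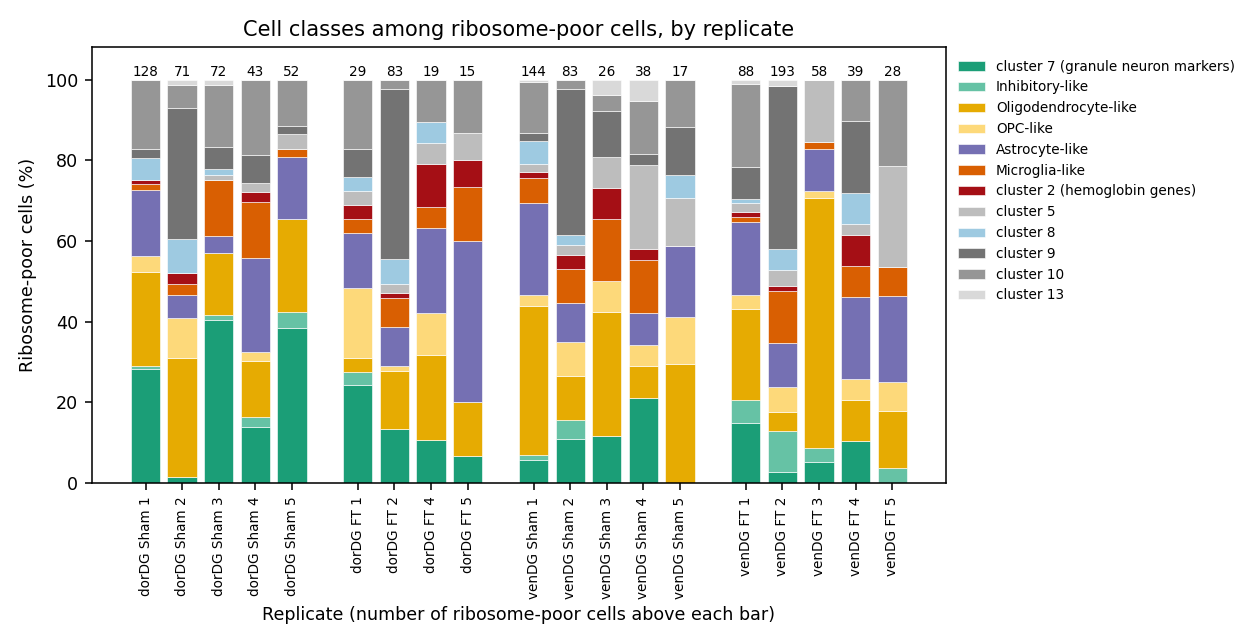
Stacked bars give the percent of each replicate's ribosome-poor cells in each class or cluster, with the number of cells above each bar. Composition differs between replicates of one group, from 15 cells in dorDG FT 5 to 193 in venDG FT 2.

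Counts were then summed per replicate, and FT was compared with Sham by quasi-likelihood F-tests in edgeR. Genes with an adjusted p (Benjamini-Hochberg) no higher than 0.2 and a log2 fold change (log2FC) of 0.32 or more in either direction were called differentially expressed (DEGs), and levels are UMIs per 10000 after scaling by the trimmed mean of M-values (TMM). These thresholds follow the study's methods. Of 4382 genes tested, 3 were DEGs (0.0685%). Slc38a2, which encodes a sodium-coupled neutral amino acid transporter, and Ptprn, which encodes a membrane protein of dense-core secretory vesicles, rose in FT. Wipi1, which encodes a phosphoinositide-binding protein of early autophagosomes, fell. At an unadjusted p under 0.05 there were 385 genes (8.79%), 239 higher in FT (5.45%) and 146 lower (3.33%), and DESeq2 called 30 of 4373 (0.686%), which included all 3. With replicates of the same treatment and number, which may share animals, modelled as correlated in limma-voom, none was called (smallest adjusted p 0.273, and 332 genes at an unadjusted p under 0.05), and the 3 genes kept their direction. In these summed profiles, fewer cells of a type and less RNA per cell cannot be told apart.

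Slc38a2 levels in the dorDG FT replicates were 0.568, 0.677, 1.87 and 2.93 UMIs per 10000, against 0.418, 0.322, 0.262, 0.451 and 0.458 in dorDG Sham. In venDG they were 0.807, 0.779, 2.53, 1.21 and 1.08 in FT and 0.671, 0.337, 0.387, 0.742 and 0.231 in Sham. FT lay above Sham without overlap within each region. The log2FC was 1.43 (SE 0.31, edgeR adjusted p = 0.143) from 277 UMIs in all, with 1.69 (SE 0.48) in dorDG and 1.23 (SE 0.42) in venDG. The call did not hold when a library was left out in 11 of 19 cases, namely dorDG FT 4 and 5, dorDG Sham 1, 2 and 3, venDG FT 3 and 4, and venDG Sham 1, 2, 3 and 5, with adjusted p up to 0.441 and a log2FC that stayed between 1.21 and 1.56.

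Ptprn levels were 0.995, 2.47, 1.2 and 0.629 in dorDG FT and 0.764, 0.322, 0.602, 0.564 and 0.713 in dorDG Sham. The venDG FT replicates had 1.55, 2.82, 1.06, 1.76 and 1.86 and the venDG Sham replicates 0.647, 1.16, 0.484, 1.01 and 0.694. All 9 FT replicates were above the Sham median of their region, although 1 FT replicate in each region fell within the Sham range. The log2FC was 1.21 (SE 0.24, edgeR adjusted p = 0.124), and 1.26 (SE 0.36) and 1.16 (SE 0.33) in dorDG and venDG. The call was lost without any 1 of dorDG Sham 2, venDG FT 4, venDG Sham 1 and venDG Sham 3, where the adjusted p reached 0.235.

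Wipi1 levels were 0.355, 0.726, 0.624 and 0.839 in dorDG FT, below all of the dorDG Sham values of 1.09, 1.87, 1.02, 1.75 and 2.29. In venDG they were 0.71, 0.805, 0.707, 0.835 and 0.860 in FT against 1.67, 1.40, 1.26, 1.21 and 0.694 in Sham. The FT values were tightly grouped in venDG, while those of dorDG rested on 3 to 15 UMIs each. None of the 9 FT values exceeded the Sham median of its region. At 0.694, venDG Sham 5 was the one Sham replicate below its region's FT values. The log2FC was -1.0 (SE 0.22, edgeR adjusted p = 0.143), with -1.35 (SE 0.33) in dorDG and -0.77 (SE 0.28) in venDG. Leaving out dorDG FT 1, 4 or 5, dorDG Sham 2, venDG FT 3 or 4, or venDG Sham 1 or 3 ended the call, with adjusted p up to 0.371.

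**Figure D3:**
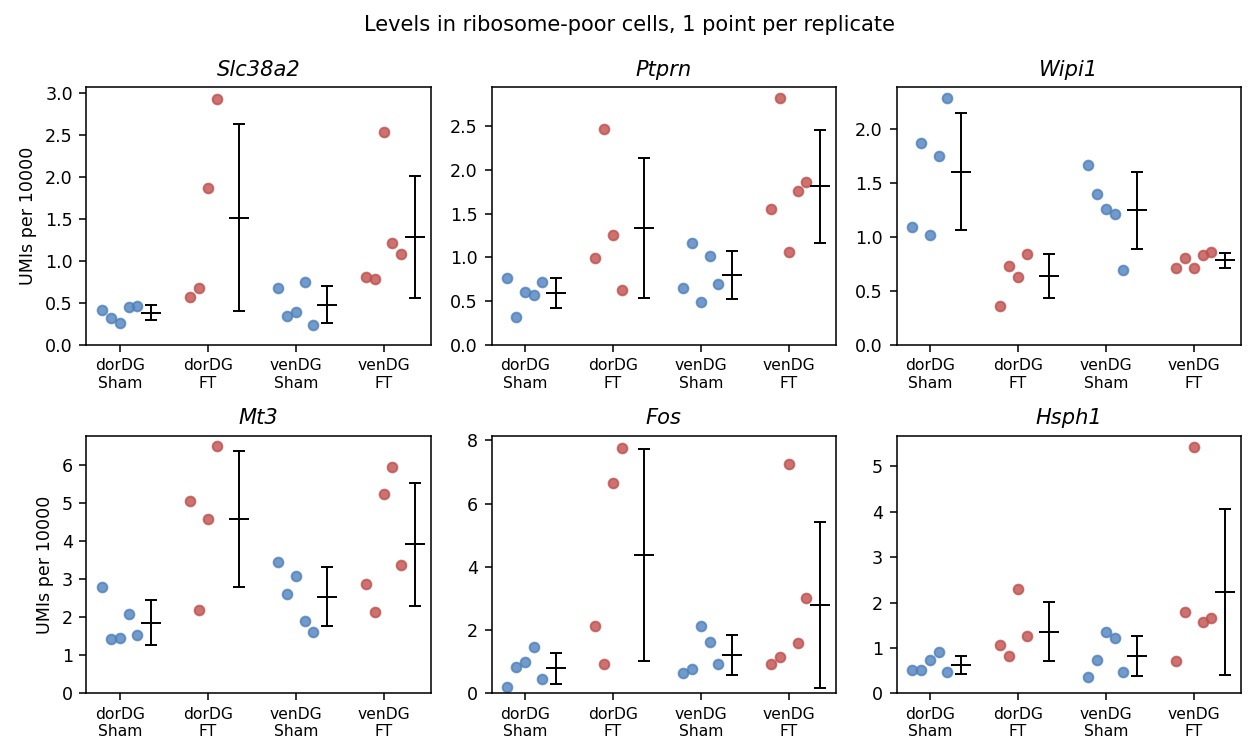
Level of 6 genes in ribosome-poor cells, in UMIs per 10000 after TMM scaling, with 1 point per replicate and the mean ± SD of each group. Slc38a2 is higher in FT in both regions without overlap, and Wipi1 is lower in FT except that venDG Sham 5 lies below the venDG FT replicates.

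The number of DEGs depended on single libraries. It was 0 without dorDG Sham 2, venDG FT 4, venDG Sham 1 or venDG Sham 3, and 1 without dorDG FT 4, dorDG FT 5 or venDG FT 3. It was 5 without venDG FT 2, 11 without dorDG FT 2 and 97 without venDG FT 1, and 2 to 4 in the other cases. Of the 21 uncalled genes of next smallest p, 20 (all but Atp5o) were called without venDG FT 1. Dnaja1, Fos, Cd63, Hspe1, Ccl3, Selk and Mt3 were called without dorDG FT 2, Fos and Mt3 without venDG FT 2, and Cd63 and Ccl4 without venDG Sham 2.

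The remaining 21 genes of smallest p all had an adjusted p of 0.349 and so were not called. Slc38a2 was among the 2 genes (0.0456%) whose FT values exceeded the Sham values in each region taken on its own, and no gene lay below in both. Within 1 region such separation occurred more often, with 52 genes above (1.19%) and 70 below (1.60%) in dorDG and 17 above (0.388%) and 23 below (0.525%) in venDG.

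Uncalled genes among these 21 are described one by one. Ctsd, the lysosomal aspartyl protease cathepsin D, had a log2FC of 1.17 (SE 0.31), with 0.807 to 3.77 UMIs per 10000 in FT and 0.235 to 1.59 in Sham. Cd63, a tetraspanin of late endosomes and lysosomes, had 1.51 (SE 0.39), with 0.497 to 2.93 in FT and 0 to 1.20 in Sham. Atp6ap1 and Atp6v1g1, both part of the proton pump that acidifies these compartments, had 0.97 (SE 0.28) and 0.79 (SE 0.23). Vamp2, a vesicle fusion protein, had 0.87 (SE 0.25) and Gdi2, which binds Rab GTPases, had 0.79 (SE 0.23). The ranges of FT and Sham overlapped for each of these 6 genes.

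The chemokine genes Ccl3 and Ccl4, which microglia express, had the largest log2FC of the 24 genes, 2.46 (SE 0.68) and 2.45 (SE 0.73). Both values leaned on dorDG FT 5, which had 31.9 and 34.6 UMIs per 10000 where the other FT replicates had at most 4.95 and 6.31. That replicate held 152 of the 697 Ccl3 UMIs and 165 of the 698 Ccl4 UMIs. Sham replicates reached 2.49 and 4.04. Without dorDG FT 5 the log2FC was 1.02 (SE 0.49) for Ccl3 and 1.01 (SE 0.46) for Ccl4. Levels of the other genes were less uneven. Fos, an immediate early gene, had a log2FC of 1.76 (SE 0.45), with 0.919 to 7.76 in FT and 0.182 to 2.13 in Sham. Mt3, a metal-binding protein of astrocytes and neurons, had 0.86 (SE 0.23), with 2.14 to 6.50 in FT and 1.42 to 3.46 in Sham. Others were Selk (1.15, SE 0.31), which encodes a selenoprotein of the endoplasmic reticulum, Evi2a (1.57, SE 0.45), Olfm2 (1.0, SE 0.28), Ssbp3 (0.77, SE 0.22) and Ankrd44 (-0.82, SE 0.24), which was lower in FT.

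Heat shock and chaperone genes, whose products help proteins fold, were the list with the largest share of members at a small p. Of its 22 members 12 were tested and none was called, but 8 had an unadjusted p under 0.05 with FT higher and none with FT lower, against 5.45% and 3.33% of all genes. The median log2FC of the 12 was 0.72, where the median over all genes tested was -0.01, and 11 were above 0. The filter on low counts used the mean over FT and Sham together, so a gene low in Sham could enter a list through its FT levels. Hspe1 was such a gene, with all Sham values (0.149 to 0.405) under the filter's 0.5. List medians over tested genes carry this selection. Their summed level was 12 to 56.2 UMIs per 10000 in FT (median 22.3) and 8.49 to 30.5 in Sham (median 14.3). Dnaja1, a co-chaperone of HSP70, had 1.14, 0.532, 2.71 and 2.31 in dorDG FT and 0.382, 0.644, 0.575, 0.338 and 0.305 in dorDG Sham. Its venDG values were 1.29, 1.16, 3.65, 0.928 and 1.0 in FT and 0.796, 0.674, 1.06, 1.28 and 0.694 in Sham, so the groups overlapped in both regions. The log2FC was 1.17 (SE 0.31) for Dnaja1, 1.3 (SE 0.33) for Hsph1, an HSP110 chaperone, 1.23 (SE 0.35) for Hspe1, the mitochondrial chaperonin 10, and 0.70 (SE 0.26) for Hsp90b1, the HSP90 of the endoplasmic reticulum. The library venDG FT 3 had the highest Dnaja1, Hsph1 and Hspe1 levels of all 19, at 3.65, 5.42 and 1.41. Without it the log2FC was 0.91 (SE 0.29) for Dnaja1 and 0.90 (SE 0.27) for Hsph1, and Hspe1 fell under the filter on low counts.

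Heat shock factor binds inverted repeats of the letters GAA in promoters. To show such letters at these genes, 300-base windows around the annotated starts (250 bases before and 50 after, RefSeq, rat assembly GRCr8) were searched for GAANNTTC and TTCNNGAA, each of which reads the same on both strands, and matches may overlap. Of the 12 genes tested, 8 had a window, of which 4 held a match and 4 did not, and 5305 of 33469 windows in the whole table (15.9%) held one. The following stretches of 60 bases lie before the start of the 3 genes with the smallest p, at chr5:60638203-60638262, chr12:10427308-10427367 and chr9:64084242-64084301 on the plus strand, with matches in capitals.
Dnaja1: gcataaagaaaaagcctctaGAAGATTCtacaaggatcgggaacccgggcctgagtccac
Hsph1: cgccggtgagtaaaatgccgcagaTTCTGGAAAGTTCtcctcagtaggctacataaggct
Hspe1: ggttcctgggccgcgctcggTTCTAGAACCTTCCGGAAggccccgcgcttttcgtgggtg
A match is a string of letters and was not tested as a binding site.

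Among immediate early genes, which neurons and glia transcribe within minutes of stimulation, 5 of 18 were tested and the median log2FC was 0.79. None was called and 2 had an unadjusted p under 0.05, Fos and Btg2 (0.97, SE 0.42), with Nr4a1 at 0.79 (SE 0.46). Btg2 and Nr4a3 were at 0 to 0.647 and 0.174 to 0.694 in Sham and reached 2.3 and 3.18 in venDG FT 3. Such genes can pass the filter on low counts through their FT levels. Nuclear genes of oxidative phosphorylation (oxphos), the respiratory chain and ATP synthase of mitochondria, had a median of 0.37 over the 50 of 75 tested. None was called, 45 were above 0 and 11 had an unadjusted p under 0.05 with FT higher. The 4 with the smallest p were Atp5o (0.86, SE 0.23) and Atp5b (0.66, SE 0.22) of ATP synthase, Cycs (0.72, SE 0.23), which is cytochrome c, and Ndufa4 (0.83, SE 0.27). Many of these genes have pseudogene copies that can take reads. The summed oxphos level was 44.8 to 69.5 UMIs per 10000 in FT and 35.5 to 58.1 in Sham, overlapping ranges.

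In 3 further lists, 21.4% to 23.5% of the genes tested were higher in FT at an unadjusted p under 0.05, beside 22% of the oxphos genes and 5.45% of all genes. None of their members was called. Translation factors had 3 of 14 at an unadjusted p under 0.05 with FT higher, Eif4a1 (0.72), Eef2 (0.61) and Eif1 (0.42), and a median of 0.26. Tubulin, actin and stathmin genes had 4 of 17, Actb (0.74), Cfl1 (0.61), Tuba1a (0.52) and Tubb2a (0.75), and a median of 0.42. Proteasome subunits had 3 of 13, with Psmb5 at 0.96, and a median of 0.10. None of these 3 lists had a member at that p with FT lower.

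Marker genes of cell types were examined in the same fit. No marker was called, and over all genes 5.45% were higher and 3.33% lower in FT at an unadjusted p under 0.05. All 8 astrocyte markers tested were above 0, with a median of 0.67, and Htra1 (0.99, SE 0.39) and Aldoc (0.80, SE 0.34) had an unadjusted p under 0.05. The summed astrocyte markers ranged from 11.2 to 33.1 UMIs per 10000 in FT and from 8.18 to 23.9 in Sham. Microglial markers had a median of 0.46 over 8 genes, 1 of them at that p (Ctss, a lysosomal cathepsin, 0.98, SE 0.42), and sums of 7.71 to 61.6 in FT and 4.93 to 35.7 in Sham. Oligodendrocyte markers had a median of 0.11 over 13, with 3 at that p, Tf (0.85), Mal (1.24) and Cnp (0.85), and sums of 35.2 to 167 in FT and 45.5 to 335 in Sham. Granule neuron markers had a median of -0.17 over 7, with Dock10 (-0.59, SE 0.19) and Tiam1 (-0.46, SE 0.21) lower and Glis3 (0.59, SE 0.23) higher in FT at that p. Among 5 inhibitory neuron markers Cck, a neuropeptide gene, was the one at that p (1.85, SE 0.55). It was at 5.19 in dorDG FT 1 and at 0.208 to 0.290 in the other dorDG FT replicates, and at 0.516 to 4.01 in venDG FT against 0.472 to 3.93 in venDG Sham, and without dorDG FT 1 its log2FC was 0.84 (SE 0.44, edgeR adjusted p = 0.586). No mossy cell, pyramidal neuron, general neuron, OPC, endothelial or mural marker tested was at that p. The 5 blood and choroid plexus genes tested were all above 0 (median 1.01), with sums of 3.30 to 2460 in FT and 0.764 to 890 in Sham. Of these Ttr, the transthyretin gene of the choroid plexus, was at that p (2.60, SE 1.19), with 29.6 in dorDG FT 4, 5.19 in dorDG Sham 4 and at most 1.26 in the other replicates. The part of cell makeup in the gene differences was not tested. The count of DEGs was 3 with the summed UMI share of the glial clusters as a further covariate. It was 2 with that of cluster 7 and the Inhibitory-like cluster, and 3 without the hemoglobin cluster. The unnamed clusters other than cluster 7 entered neither covariate, and a count of DEGs does not measure the part of cell makeup.

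No gene of the neuronal signalling lists was called. The glutamate and GABA lists comprised 16 ionotropic glutamate receptor genes with a median log2FC of -0.08, 10 GABA-A receptor genes with -0.19 and 5 metabotropic glutamate receptor genes with -0.28. In these lists the one gene at an unadjusted p under 0.05 was Grm3, at -0.69. Of 21 genes of cAMP signalling 3 were lower in FT at that p, the adenylyl cyclase gene Adcy8 (-0.42) and the phosphodiesterase genes Pde2a (-0.51) and Pde4b (-0.54). Of 28 synaptic vesicle genes Vamp2 was higher and Unc13c, a priming factor, lower (-0.67), and of 25 potassium channel genes Kcnq5 was lower (-0.56). These shares, 3.57% higher and 3.57% lower for vesicle genes and 4% lower for potassium channel genes, were near those of all genes (5.45% higher, 3.33% lower). The 19 sodium and calcium channel genes and 30 synaptic adhesion genes had none in either direction.

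No gene of the lists tied to antidepressant action was called. In the serotonin list, 6 of 15 genes were tested, the median was 0.31 and Htr2a, a serotonin receptor gene, had 0.46 at an unadjusted p under 0.05. Among 6 neurotrophin genes Ntf3 was lower at that p (-0.92), among 4 glucocorticoid response genes Klf9 was higher (0.61), and among 7 cholesterol synthesis genes Cyp51 was higher (0.98). The myelin list had 2 of 19 higher and 1, Fa2h (-0.71), lower. Over all genes 5.45% were higher and 3.33% lower at that p. The genes the study named from its single-cell data as higher in FT had log2FC of 0.59 (Uqcrh), 0.53 (Uqcrq) and 0.36 (Atp5d). Those it named as lower were at -0.50 (Epha7), -0.33 (Cacna1a), -0.16 (Gria3), -0.16 (Syt1), -0.13 (Gria2), -0.05 (Gabrb1) and 0.04 (Ntrk2). None of these 10 was called, and as the study chose them on these samples they are not independent evidence of direction. The study named them in dorDG oligodendrocytes or inhibitory neurons, while these values sum all ribosome-poor cells of both regions. The list named as higher had medians of 0.60 in dorDG and 0.34 in venDG, and that named as lower -0.34 and 0.03. Of the genes the study named from bulk tissue, Gabrb2 (-0.34) was tested and not called.

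**Figure D4:**
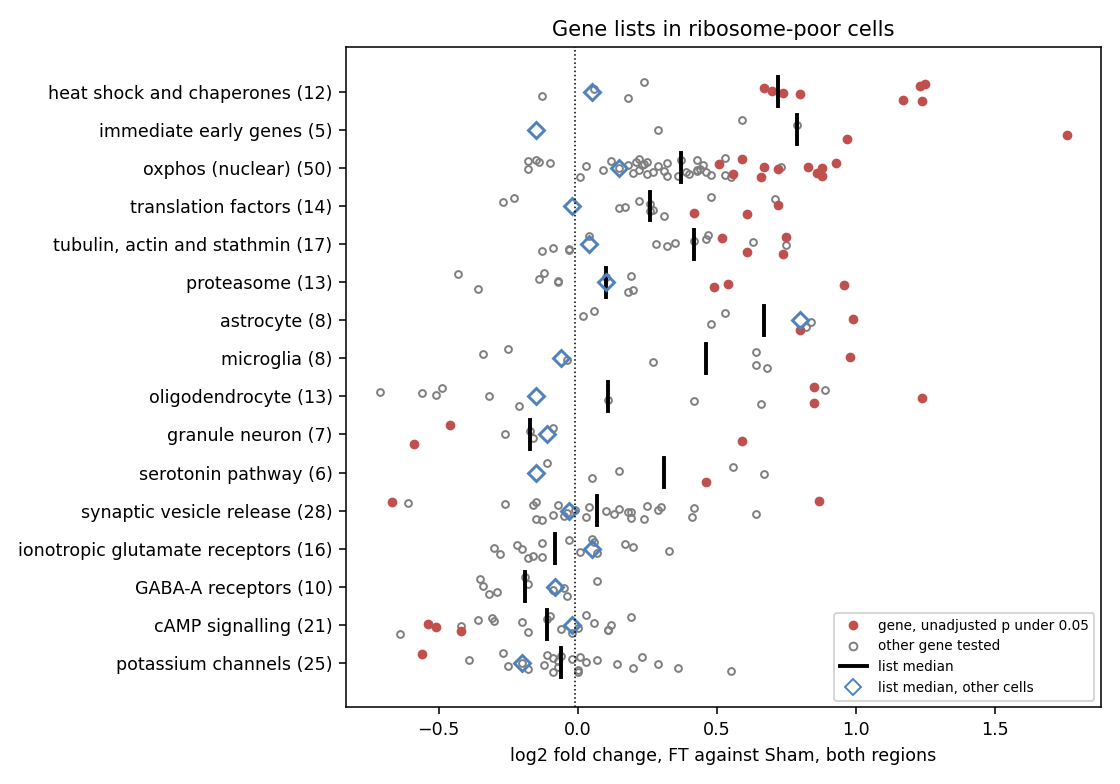
Log2FC of FT against Sham in ribosome-poor cells for the members of 16 gene lists, with 1 dot per gene, a bar at each list's median, a blue diamond at the list's median in the other cells and a dotted line at the median of all genes tested. Heat shock genes have a median of 0.72 in ribosome-poor cells and 0.05 in the other cells, and astrocyte markers have 0.67 and 0.80. The genes tested differ between these sets of cells.

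Taken separately in the same fit, the regions gave 3 DEGs in dorDG (0.0685%) and 0 in venDG (0.00%). In dorDG Ttyh1, a membrane protein abundant in astrocytes, Ctsd and Ccl4 rose, each at an edgeR adjusted p of 0.192. Ttyh1 levels were 2.42, 1.94, 2.5 and 4.61 in dorDG FT against 1.33, 1.35, 0.837, 1.01 and 0.713 in dorDG Sham, which did not overlap (log2FC 1.36, SE 0.28). Its log2FC in venDG was 0.03 (SE 0.26). Ctsd levels in dorDG were 1.28, 1.45, 2.08 and 2.93 in FT and 0.564, 0.258, 0.235, 0.676 and 0.560 in Sham, again without overlap (log2FC 1.95, SE 0.43), and its log2FC in venDG was 0.61 (SE 0.37). The dorDG log2FC of Ccl4 was 4.40 (SE 0.97), and without dorDG FT 5 it was 1.21 (SE 0.85, edgeR adjusted p = 0.886). With the replicate block, Ctsd was the one of these 3 still called (edgeR adjusted p = 0.186), with Ttyh1 at an adjusted p of 0.463 and Ccl4 at 0.66. All 3 calls were lost when any 1 of dorDG FT 4 and 5, dorDG Sham 1, 3, 4 and 5, venDG FT 4 and 5, or venDG Sham 4 and 5 was left out. Ctsd and Ccl4 were also lost without venDG Sham 1, and Ctsd without venDG Sham 2. The dorDG count was 0 without dorDG FT 4, dorDG Sham 1, 3 or 5, venDG FT 4 or 5, or venDG Sham 4 or 5, and 1 without dorDG Sham 4 or venDG Sham 1. It rose to 7 without venDG FT 3, 25 without venDG FT 2, 39 without venDG FT 1, 42 without dorDG FT 1 or FT 2 and 79 without dorDG Sham 2.

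At an unadjusted p under 0.05 there were 359 genes in dorDG (8.19%) and 267 in venDG (6.09%), and DESeq2 called 46 in dorDG and 0 in venDG. The venDG genes with the smallest p were Agtr1a, an angiotensin II receptor gene (-1.17, SE 0.26), Arhgap28 (6.83, SE 1.60), Zfp386 (-2.63, SE 0.68) and Olr1171 (-1.29, SE 0.35). The Arhgap28 value came from venDG FT 2. The difference of the FT effect between the regions was tested in itself and had 0 DEGs by edgeR (0.00%), 269 genes at an unadjusted p under 0.05 (6.14%) and 1 by DESeq2. Its smallest p belonged to Zfp385b (log2FC -1.17 in dorDG and 0.96 in venDG), the sodium channel gene Scn1a (-1.08 and 0.58), Ginm1 (1.10 and -1.50) and the biliverdin reductase gene Blvrb (-1.23 and 0.30).

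The same replicates also yielded 2121 cells at or above the boundary. There, 0 of 3657 genes passed in edgeR (0.00%), and 149 had an unadjusted p under 0.05 (4.07%). No other tool was run on these cells. Slc38a2 had a log2FC of -0.07 (SE 0.22) there and Wipi1 -0.10 (SE 0.17). The FT effect in ribosome-poor cells minus that in the other cells, tested over 4299 genes, gave 0 DEGs (0.00%) and 282 genes at an unadjusted p under 0.05 (6.56%), and no other tool was run on it. Its smallest p was for Slc38a2, a difference of 1.42 (SE 0.31, p = 7.09e-05, edgeR adjusted p = 0.305). Suclg2, a subunit of succinyl-CoA ligase in mitochondria, came next with a difference of -1.24 (SE 0.29), from -0.81 in ribosome-poor cells and 0.31 in the other cells. Dnaja1 (1.12, SE 0.29) and Atp6ap1 (0.92, SE 0.25) followed.

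The list medians differed between the cell populations, but each was taken over the genes that passed the filter in those cells. For ribosome-poor and other cells these were 12 and 16 heat shock, 5 and 10 immediate early, 8 and 7 astrocyte, and 50 and 69 oxphos genes. The gaps between medians were not tested. Heat shock genes had a median log2FC of 0.05 in the other cells, and 6 of the 15 tested for the difference had an unadjusted p under 0.05 with the FT effect higher in ribosome-poor cells. Over all genes tested for the difference, 167 of 4299 had a higher and 115 a lower FT effect in ribosome-poor cells at that p. Immediate early genes had -0.15 in the other cells and 5 of 9 at that p. The astrocyte list did not show such a gap, with a median of 0.80 in the other cells, where 6 of 7 markers were higher in FT at an unadjusted p under 0.05, and 0 of 8 at that p for the difference. In the other cells 67 of all 3657 genes were higher in FT at that p. Oxphos genes had a median of 0.15 in the other cells, and 3 of 66 had a higher and 1 a lower FT effect in ribosome-poor cells at that p. The share with a higher effect was close to that over all genes. Leaving out venDG FT 1 raised the number of DEGs for the difference to 20, and it was 1 to 3 without dorDG FT 1 or 2, dorDG Sham 1, or venDG Sham 2 or 3.

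**Figure D5:**
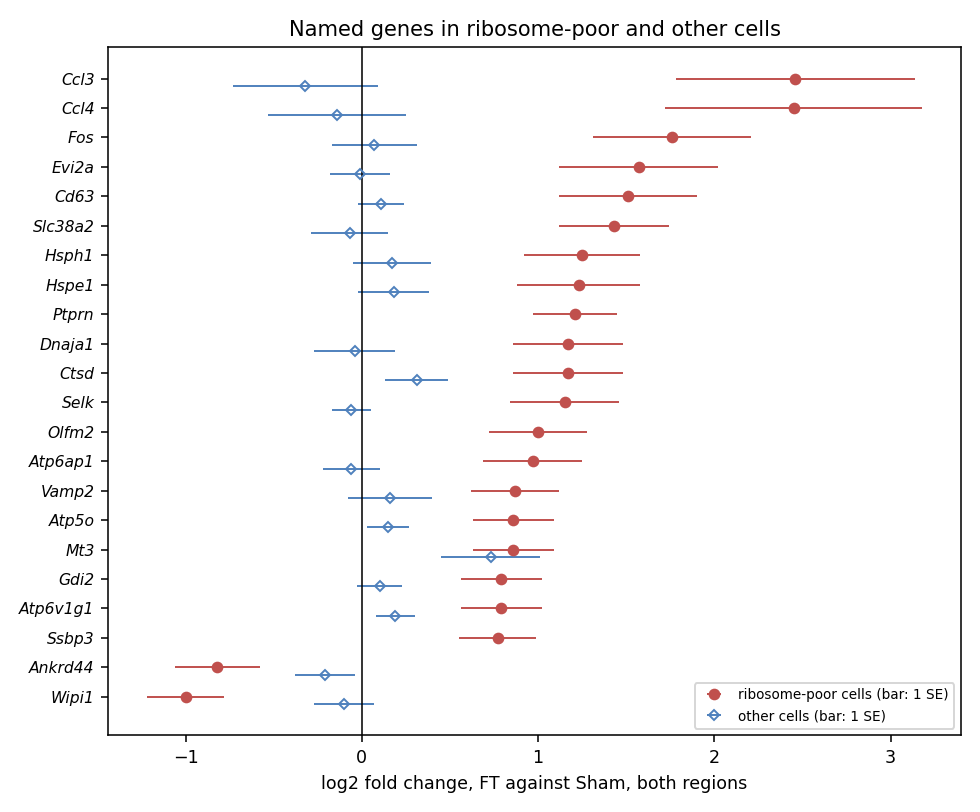
Log2FC ± 1 SE of FT against Sham for 22 of the 24 genes of smallest p, in ribosome-poor cells (circles) and in the other cells of the same replicates (diamonds, absent for Ptprn, Olfm2 and Ssbp3, which were not tested there). Slc38a2 has 1.43 in ribosome-poor cells and -0.07 in the other cells, and Mt3 has 0.86 and 0.73.

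The FT effect was also computed within replicates of each reaction number. Over the 11 replicates with 1 reaction, 104 of 4412 genes were DEGs (2.36%), 95 of them higher in FT. Over the 8 replicates with 2 reactions, 0 of 4328 passed in edgeR (0.00%) and 175 had an unadjusted p under 0.05. No other tool was run on either subset. The log2FC of Slc38a2 was 2.16 and 0.63 in the 1-reaction and 2-reaction replicates, that of Cd63 was 3.03 and 0.32, that of Ptprn 0.87 and 1.43 and that of Wipi1 -0.72 and -1.17. For lists, heat shock genes had medians of 1.06 and 0.35, with 5 DEGs among 11 in the 1-reaction replicates, and oligodendrocyte markers had 1.27 and -1.05, with 6 among 13. The interaction of treatment and reaction number, an analysis added after these values were seen, gave 0 DEGs by edgeR (0.00%) and 274 genes at an unadjusted p under 0.05 (6.25%). No other tool was run on it. Mal (p = 0.000167), Evi2a (p = 0.000269) and Cd63 (p = 0.00099) were among these, before adjustment in edgeR, and were picked out after their values were seen.

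Within classes of ribosome-poor cells, counts were summed for each replicate that held 5 or more cells of the class. Astrocyte-like cells, in 7 FT and 5 Sham replicates, had 3 DEGs of 4534 (0.0662%), all higher in FT, with 234 at an unadjusted p under 0.05 (5.16%) and 0 called by DESeq2. Fos had 51 UMIs over 7 of 7 FT replicates (4.84 UMIs per 10000) and 2 UMIs over 2 of 5 Sham replicates (0.131), a log2FC of 4.74 (SE 0.79, edgeR adjusted p = 3.82e-06), and was called in 12 of 12 cases with a replicate left out. Its DESeq2 adjusted p was 0.969, and 23 of its 53 UMIs came from venDG FT 5. Gadd45g, a stress-inducible gene, had 33 UMIs in 5 of 7 FT and 6 in 3 of 5 Sham replicates (log2FC 2.78, SE 0.72, edgeR adjusted p = 0.19). Of its 39 UMIs 19 came from venDG FT 5. Its call was lost without dorDG FT 5, dorDG Sham 1, 4 or 5, venDG FT 5, or venDG Sham 1 or 2. The third was Arhgap28, with 576 of 577 UMIs in venDG FT 2. The count of DEGs was 5 without dorDG FT 2.

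Oligodendrocyte-like cells, in 4 FT and 9 Sham replicates, had 11 DEGs of 4485 (0.245%), all higher in FT, with 174 at an unadjusted p under 0.05 (3.88%). DESeq2 called none of the 11, with adjusted p of 0.998 for Fos, Rtn2, Hsph1 and Cryab and 0.401 for Btg2, and called 1 other gene, the transferrin gene Tf (log2FC 1.41, SE 0.31, DESeq2 adjusted p = 0.026). The class joined cluster 6, with 7 dorDG and 39 venDG cells from FT and 1 and 10 from Sham, and cluster 12, with 12 and 34 from FT and 79 and 68 from Sham, and immediate early genes (Egr1, Egr2 and Fosb) were among the leading genes of cluster 6. The library venDG FT 3 alone held 54.4% of cluster 6. Fos had 156 UMIs in 4 of 4 FT replicates (9.74 UMIs per 10000) and 24 in 5 of 9 Sham replicates (0.983), a log2FC of 2.89 (SE 0.52, edgeR adjusted p = 2.9e-05), and was called by edgeR whichever of the 13 replicates was left out. Of its UMIs 98 came from venDG FT 3. Rtn2, a reticulon of the endoplasmic reticulum (2.72, SE 0.51), and Btg2 (3.13, SE 0.74) were called except without dorDG FT 2. Hsph1 (2.11, SE 0.58) and the small heat shock protein gene Cryab (2.25, SE 0.61) lost their calls without venDG FT 3, dorDG FT 2, dorDG Sham 1, or venDG Sham 1, 2 or 5, and also without venDG FT 2 for Hsph1 and dorDG Sham 5 for Cryab. The number of DEGs was 3 without dorDG FT 2, 6 without venDG FT 3, 7 without venDG Sham 5, 21 without venDG FT 1 and 25 without venDG Sham 3.

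In cluster 7, in 4 FT and 7 Sham replicates, 5 of 4394 genes were DEGs (0.114%), all higher in FT, with 221 at an unadjusted p under 0.05 (5.03%) and 0 called by DESeq2. They were Arhgap28, the UFM1 protease gene Ufsp2 (2.36, SE 0.52), the matrix protein gene Fras1 (1.98, SE 0.43), the apolipoprotein gene Apoa2 (1.55, SE 0.35) and the adhesion receptor gene Lphn3 (1.39, SE 0.32). The last 4 were called in 3 to 6 of the 11 fits with a replicate left out, and none was called without dorDG FT 2, dorDG Sham 1, venDG FT 2 or venDG Sham 1. The count was 0 without venDG FT 2 or venDG Sham 1, 1 to 2 without dorDG FT 2, dorDG Sham 1, 3 or 5, or venDG Sham 4, 9 without dorDG FT 1 and 17 without venDG Sham 2. In cluster 10, 0 of 4604 genes passed in edgeR (0.00%) and 0 in DESeq2, 185 had an unadjusted p under 0.05 (4.02%) in edgeR, and the smallest p belonged to Fdx1l (2.43, SE 0.57). Cluster 10 had 2 DEGs without venDG Sham 1. Microglia-like, OPC-like and Inhibitory-like cells had too few replicates with 5 cells in at least 1 treatment to be tested.

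Arhgap28 was concentrated in 1 reaction. The second reaction of venDG FT 2 held 9896 Arhgap28 UMIs in all its cells, and all 177 of them had at least 1, whereas no other reaction had more than 48 UMIs. In ribosome-poor cells its level was 229 UMIs per 10000 in venDG FT 2 and 0.0928 to 0.722 in the other 18 replicates. Its log2FC over both regions was 4.53 (SE 1.51) with all replicates, and in Oligodendrocyte-like cells it was 5.08 with venDG FT 2 and -1.10 without it.

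Per-cell measures of the ribosome-poor cells were set against treatment, permuted within region over all 31752 arrangements in a two-sided exact test whose smallest possible p is 3.15e-05. The median share of UMIs in oxphos genes was 0.524% ± 0.0381 (SD, n = 4) in dorDG FT, 0.413% ± 0.0549 (n = 5) in dorDG Sham, 0.510% ± 0.0587 (n = 5) in venDG FT and 0.455% ± 0.0573 (n = 5) in venDG Sham. FT was higher by 0.0836 percentage points (exact permutation p = 0.00523, adjusted over the 28 measures p = 0.146). Median mitochondrial share was higher in FT by 1.2 percentage points (exact permutation p = 0.0797), and by 0.671 without venDG FT 3. FT minus Sham was -325.5 for median UMIs per cell (exact permutation p = 0.375) and -266.1 for median genes per cell (exact permutation p = 0.187). With each cell thinned to 1000 UMIs, an analysis added later that kept 116, 295, 321 and 254 cells of dorDG FT, dorDG Sham, venDG FT and venDG Sham, FT minus Sham in genes per cell was -35.0 (exact permutation p = 0.0397, unadjusted). No measure had an adjusted p at or under 0.05 with all replicates, and without venDG FT 2 the oxphos share had one (0.0939 percentage points, exact permutation p = 0.00157, adjusted p = 0.0441).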

How the data were processed

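Droplet 3′ gene expression (10x Genomics, v2 chemistry) was read as the raw UMI counts per gene and cell that the authors deposited for each region. The authors made these counts with Cell Ranger, filtered cells and assigned cell types. The submitters' processing notes also name Seurat 3 and the rn5 build. The authors' cell type names of dorDG, other per-cell information that they deposited, were used once to describe clusters, and log-normalized venDG values were not used. The 170 venDG columns with an unexplained second suffix were left out, which left 19127 genes and 3347 cells. The filter written in the methods (1000 genes or more, no more than 20000 UMIs and 25% mitochondrial UMIs) would keep 714 of the 1226 ribosome-poor cells and was tried as an alternative.

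Groups came from the labels, and counts of a replicate's reactions were summed. The study describes each replicate as a pool of several animals, so p-values measure the spread between these pools and not between single animals. In the Astrocyte-like and Oligodendrocyte-like fits the edgeR p-values match a normal distribution at log2FC over SE. There the spread was in effect shared over genes, so a gene's own spread between replicates hardly entered. The 36 pairs of replicates within groups differed by more than counting error, with ratios of chi-square to degrees of freedom from 1.75 to 9.01. The members, gene lists, markers, thresholds and most tests were chosen with earlier results of these data known. Ribosome-poor cells were clustered with scanpy 1.11.5 (2000 variable genes, 30 principal components, 15 neighbours, Leiden resolution 1.0), and a cluster was named where at least 3 markers stood 2-fold above the remaining cells and were seen in 10% of its cells, with a lead of 3 over the next type.

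Genes averaging 0.5 or more UMIs per 10000 over the FT and Sham replicates together were fitted in edgeR 4.0.16 (quasi-likelihood F-test, TMM factors 0.801 to 1.15), without ribosomal protein genes. DESeq2 1.42.0 and limma 3.58.1 were alternatives. Named genes are the DEGs and the genes of smallest p up to 24 over both regions, up to 4 higher and 4 lower DEGs or the 4 of smallest p in each other fit, the 4 of smallest p in each list, and the genes the study named, leaving out unnamed loci. Some genes that meet this rule are not reported here. Class fits needed 5 cells per replicate and 3 replicates per treatment. On simulated counts for the fit over both regions (4382 genes), 91% of 100 genes changed 2-fold and 99% of 100 changed 4-fold were recovered, 44 unchanged genes were called, and 1 gene was called where none was changed. Both sets were changed at once and the genes were drawn independently of one another. These rates are therefore not the power of the comparison in the real counts. Shares and medians, 1 value per replicate, were compared by permuting treatment within region at a threshold of 0.05. The alternatives chosen after the data were seen were the fits without the hemoglobin cluster, with the glial share as a covariate and with the interaction of treatment and reaction number, and thinning to 1000 UMIs.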

Additional observations from a re-analysis of the deposited data

Results flagged for a closer look

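Within each group of 4 or 5 replicates, 120 sets of values were checked for a replicate far from the others by Dixon's ratio, and 15 had one, where chance flags about 1 in 20. Gene values are UMIs per 10000 in ribosome-poor cells, and no cause was tested. In dorDG FT 5, Ccl3 was at 31.9 (others 0.194 to 1.2) and Ccl4 at 34.6 (others 0.339 to 2.71). In dorDG FT 4, Vamp2 was at 0.208 (others 0.995 to 1.11). In dorDG FT 1, Arhgap28 was at 0.142 (others 0.387 to 0.419) and the median number of genes per cell was 1678 (others 958 to 1020).

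The library venDG FT 3 stood above its group in 5 values. Slc38a2 was at 2.53 (others 0.779 to 1.21), Dnaja1 at 3.65 (others 0.928 to 1.29), Hsph1 at 5.42 (others 0.71 to 1.79) and Ssbp3 at 1.53 (others 0.936 to 1.08), and the median mitochondrial share was 9.11% (others 2.52% to 4.19%). In venDG FT 2, Ctsd was at 3.77 (others 0.807 to 1.30) and Arhgap28 at 229 (others 0.0928 to 0.161). The hemoglobin cluster held 24.3% of the UMIs of venDG FT 4 (others 0% to 3.91%). Among Sham replicates, Cd63 was at 1.20 in venDG Sham 2 (others 0 to 0.348) and Gdi2 at 1.62 in venDG Sham 5 (others 0.472 to 0.696).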

How the results depend on the processing

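The count of 3 DEGs over both regions became 30 with DESeq2, 99 with no filter on low counts, 9 with the replicate block, 6 with the number of reactions as a covariate, 104 within replicates of 1 reaction and 0 within those of 2. It was 0 with limma on log2(UMIs per 10000 + 0.01), 0 with limma-voom where regions of one treatment and number were correlated (0.141), 0 at a boundary of 2.5%, and 1 at 1.5%, with at least 20 cells per replicate or with the written quality filter. It stayed at 2 or 3 with relative log expression factors, a boundary of 1%, either composition covariate, no ribosomal or mitochondrial genes in the libraries, or no hemoglobin cluster. The dorDG count of 3 became 46 with DESeq2, 27 fitted over dorDG alone and 7 with the replicate block, which kept 1 of the 3 (Ctsd), and DESeq2 called 1 gene for the difference between regions. Within classes, the counts were 0 with DESeq2 and 0 with at least 10 cells per replicate for Astrocyte-like cells, 0, 216 and, with the replicate block, 1 for cluster 7, 1 with DESeq2 (none of the 11) and 5 with the replicate block for Oligodendrocyte-like cells, and 2 with the replicate block for cluster 10. The cause of these shifts was not tested. Leaving out 1 replicate at a time gave 0 to 97 DEGs over both regions, 0 to 79 in dorDG, 0 to 3 in venDG, 0 to 1 for the difference between regions, 0 to 20 for ribosome-poor against other cells, 2 to 5 in Astrocyte-like cells, 0 to 17 in cluster 7, 0 to 2 in cluster 10 and 3 to 25 in Oligodendrocyte-like cells, where a treatment left with few samples was assumed to vary like the others.

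The difference in oxphos share was 0.0417 percentage points at a boundary of 1% and 0.0286 within replicates of 2 reactions, and no longer past the unadjusted threshold in either. With 1 replicate left out its adjusted p was 0.0441 (without venDG FT 2) to 0.325, so that 0 to 1 of the 28 measures had an adjusted p of at most 0.05. The difference in mitochondrial share ranged from 0.671 percentage points (without venDG FT 3) to 1.5 and passed the unadjusted threshold without dorDG Sham 2 or venDG FT 2. At a boundary of 1% the differences in median UMIs (608) and genes (86.4) per cell turned positive. Of 69 named genes, 60 kept their sign in every alternative run. None of the genes that reversed had been called over both regions. Ccl3 was at -0.15 at a boundary of 1%, where Mal was at -0.04, Cnp at -0.06 and Syt1 at 0.01. Within replicates of 2 reactions Mal was at -1.25, Cnp at -0.33, Gria3 at 0.26, Epha7 at 0.01, Syt1 at 0.19 and Gabrb1 at 0.11. With at least 20 cells Syt1 was at 0.03 and Gabrb1 at 0.05. Gabrb1 was at 0.01 with the UMI share of cluster 7 and the Inhibitory-like cluster as a covariate. Ntrk2 was at -0.02 with no filter, -0.09 with limma on log2 values, -0.06 within replicates of 1 reaction and -0.00 without dorDG FT 2. With 1 replicate left out, Gabrb1 ranged from -0.12 to 0.01 and Ntrk2 from -0.00 to 0.12, and Arhgap28 in Oligodendrocyte-like cells from -1.10 (without venDG FT 2) to 6.30.

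The replicate numbers were shared between FT and Sham in the labels. Same-numbered FT and Sham samples of a region had correlations of -0.0764 to 0.439 over 9 pairs, and 14 of 18 samples were closest to their own number. The main fit had region as its covariate and left this pairing out. The replicate block, which uses it, was an alternative and called 9 genes over both regions, with all 3 of the main fit among them. Between regions the correlations of same-numbered samples of one treatment were 0.00225 to 0.406. Depth limits these values: 1 replicate had 15 ribosome-poor cells, and the 3 genes called over both regions rested on 277 to 464 UMIs over 19 replicates. Some genes called within classes rested on far fewer, such as Gadd45g in Astrocyte-like cells (39 UMIs) and Btg2 in Oligodendrocyte-like cells (52).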
